A study of Homo sapiens with 20 samples.

Results

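The 10 genes described here encode the NF-kB transcription factor subunits (NFKB1, NFKB2, REL, RELA and RELB), the inhibitors that hold them in the cytoplasm (NFKBIA, NFKBIB and NFKBIE) and a pair of ubiquitin-system regulators of the signal (TNFAIP3 and BIRC3). They were taken by gene symbol from the 39918 genes of the count table, and all 10 were present and were among the 18959 genes that passed the filter on low counts. The study sequenced total RNA of the human colorectal cancer line HCT-116 in 5 groups of 4 libraries. The asynchronous group was untreated. The G2 group had been held for 16 h in 2 mM thymidine, which stalls DNA replication, released for 7 h and collected at 0 h of drug. The other 3 groups received the same thymidine block and release and then 3 h of 20 µM MG132, 3 h of 100 nM bortezomib, or 3 h of 20 µM MG132 together with 50 µg/ml α-amanitin. MG132, a peptide aldehyde, and bortezomib, a boronic acid, inhibit the proteasome, and α-amanitin inhibits RNA polymerase II. A vehicle group at 3 h was not analysed here, so every comparison of a drug group with G2 also holds 3 h of cell cycle time. No group with α-amanitin alone was analysed either, so its effect is seen only in cells that also received MG132. The labels do not say whether the 4 libraries of a group came from separate cultures, so the p-values measure only how far these libraries differ, which may be technical variation.

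NF-kB dimers are kept inactive by inhibitors of the IκB family. When a receptor such as that for tumour necrosis factor is engaged, the IKK complex phosphorylates IκBα, the product of NFKBIA, which is ubiquitinated and degraded by the proteasome, and the freed dimers enter the nucleus and activate transcription. The proteasome also trims the precursor proteins encoded by NFKB1 and NFKB2 into DNA-binding subunits. NFKBIA, TNFAIP3, BIRC3, NFKBIE, RELB, NFKB1 and NFKB2 are themselves known NF-kB target genes, which makes several of them feedback inhibitors. Proteasome inhibition is therefore known to stabilise IκBα protein and to block induced NF-kB activation. The measurements here are of RNA alone, and no protein was measured.

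The promoters of NFKBIA, TNFAIP3 and BIRC3 are shown because these are known NF-kB target genes and NF-kB recognises a short DNA sequence. No change of BIRC3 passed the tests below. The RefSeq table of promoter windows (GRCh38.p14, 250 bases before to 50 bases after an annotated start) held 8 of the 10 genes, with 13 windows in all. RELB and NFKBIE were not in it. The 10-base NF-kB consensus was searched on both strands, and overlapping matches were allowed. It was found in 8 of the 13 windows and in 7 of the 8 genes, RELA being the gene without a match, against 11.3% of all 35116 windows of the same length in the table. The 250 bases before the start of NFKBIA (chr14:35404750-35404999, minus strand), TNFAIP3 (chr6:137867009-137867258, plus strand) and BIRC3 (chr11:102317234-102317483, plus strand) follow, 5′ to 3′ on the gene's own strand, with the matches in capitals.
NFKBIA: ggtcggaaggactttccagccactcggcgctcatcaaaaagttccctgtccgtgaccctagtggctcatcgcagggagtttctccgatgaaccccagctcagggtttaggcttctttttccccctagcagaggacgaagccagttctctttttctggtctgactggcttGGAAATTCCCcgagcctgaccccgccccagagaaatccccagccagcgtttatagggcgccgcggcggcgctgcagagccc
TNFAIP3: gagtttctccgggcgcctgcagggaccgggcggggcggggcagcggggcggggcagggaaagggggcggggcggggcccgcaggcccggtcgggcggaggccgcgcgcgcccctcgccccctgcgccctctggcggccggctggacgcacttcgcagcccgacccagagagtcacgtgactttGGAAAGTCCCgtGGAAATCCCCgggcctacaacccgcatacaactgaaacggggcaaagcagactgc
BIRC3: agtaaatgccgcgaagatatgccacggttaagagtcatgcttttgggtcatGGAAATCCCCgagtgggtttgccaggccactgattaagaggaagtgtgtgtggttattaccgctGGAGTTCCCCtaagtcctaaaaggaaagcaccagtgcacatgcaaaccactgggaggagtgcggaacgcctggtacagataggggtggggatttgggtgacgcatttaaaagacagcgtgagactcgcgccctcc
NFKBIA has 1 match, GGAAATTCCC, which begins 81 bases before the start. TNFAIP3 has a pair of matches, which begin 67 and 55 bases before the RefSeq start. GENCODE release 29 places the start of TNFAIP3 at 137867188, upstream of both. BIRC3 has matches that begin 199 and 135 bases before its start. All of these matches read as the consensus on the strand opposite to the gene. Among the subunits, NFKB1 has GGGAATTTCC at 49 bases before a start, and REL has a pair of overlapping matches at 47 and 46 bases. NFKB2 has 3 matches in a window and 2 in another, and the inhibitor NFKBIB has 3 in a window, some of them overlapping. A match describes the sequence and shows neither binding nor use by NF-kB.

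Libraries held between 26797395 and 39710457 counts. The labelled cell type was checked against its markers. The epithelial genes KRT8, KRT18, KRT19, EPCAM and CDH1 were high, and the summed epithelial list lay between 3140 and 5869 CPM (counts scaled to library size, here with TMM scaling between libraries) over the 20 libraries. The intestinal markers VIL1, CDX1 and CEACAM5 were at or near 0, while CDX2 and KRT20 of the same list had means of 9.60 and 3.00 CPM. Summed leukocyte markers lay between 1.69 and 6.55 CPM, mostly the lysosomal gene CD68, while PTPRC, which defines leukocytes, never exceeded 4 counts. Fibroblast markers were at 3.79 to 5.06 CPM in asynchronous libraries and at 7.14 to 16.8 CPM in the other groups, mostly from COL1A1 and some ACTA2 (COL1A2, DCN and LUM were at most at 3 counts), and endothelial markers were at most 2.28 CPM. The part of these marker differences in the results was not tested. Libraries also differed in base composition: the trend of gene levels with GC content was steeper than 0.3 log2 per 10 points of GC, up or down, in asynchronous replicate 3, G2 replicate 2, MG132 replicate 2 and MG132 replicate 4. In bulk RNA scaled to the library total, fewer transcripts per cell and a shift in the rest of the RNA cannot be told apart, and a fall of all transcripts together would not show.

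The level of the inhibitor NFKBIA fell in cells given MG132 with α-amanitin, against G2 and against MG132 alone. TNFAIP3 was called lower in these cells only against G2 and by a small margin (adjusted p from edgeR = 0.0489). That call was lost with each library of the comparison left out in turn, except G2 replicate 3. The TNFAIP3 mean was about as low with MG132 alone (1.80 CPM) or bortezomib (1.57 CPM) as with α-amanitin added (1.67 CPM). No gene of the 10 was called higher in any of the 6 comparisons, where 0.0369% to 1.95% of all genes were. Tests were edgeR quasi-likelihood tests over all 18959 genes with Benjamini-Hochberg adjustment, and genes with an adjusted p under 0.05 were called. With MG132 plus α-amanitin against G2, 2 of the 10 genes were called lower, NFKBIA and TNFAIP3, where 2.32% of all genes tested were called lower. The same pair were the only members whose libraries did not overlap between these groups, beside 7.24% of all genes that lay wholly below. Against MG132 alone, MG132 plus α-amanitin had 1 member called lower, NFKBIA (1.51% of all genes), and that gene alone did not overlap (4.01% of all genes lay wholly below).

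With MG132 against G2, 0 of the 10 genes were called by edgeR (2.08% of all genes), although 395 genes were, and 2238 genes had an unadjusted p under 0.05. The members NFKBIA and TNFAIP3 had unadjusted values of 0.00276 and 0.00511 there. NFKBIA and TNFAIP3 lay below G2 in all 4 libraries, beside 4.45% of all genes that lay wholly below. With bortezomib against G2, 0 members were called (1.15% of all genes), 2753 genes had an unadjusted p under 0.05, and the members NFKBIA, TNFAIP3 and NFKBIE lay wholly below G2, beside 7.55% of all genes. Between MG132 and bortezomib, 0 members were called, against 0.0369% of all genes, none separated the groups (3.16% of all genes), and 768 genes had an unadjusted p under 0.05. Between G2 and asynchronous cells 0 members were called (2.09% of all genes), no member separated the groups (7.64% of all genes), and 2487 genes had an unadjusted p under 0.05. DESeq2 called 2 members, NFKBIA and TNFAIP3, with bortezomib, and 0 in each of the other comparisons without an edgeR call. The comparisons of the drug groups with G2 share the 4 G2 libraries.

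The median log2 fold change of the 10 genes was -0.20 with MG132, -0.27 with bortezomib and -0.14 with MG132 plus α-amanitin, each against G2. Over all genes tested it was -0.03, -0.01 and 0.00. The 10 genes span several roles, and their medians hide the differences among them that follow. Among the 10 genes, fold changes are given below for 23 of the 60 gene and comparison pairs. In these the log2 fold change was at least as large as its standard error (SE). Most but not all of the other 37 are described by their levels.

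**Figure D1:**
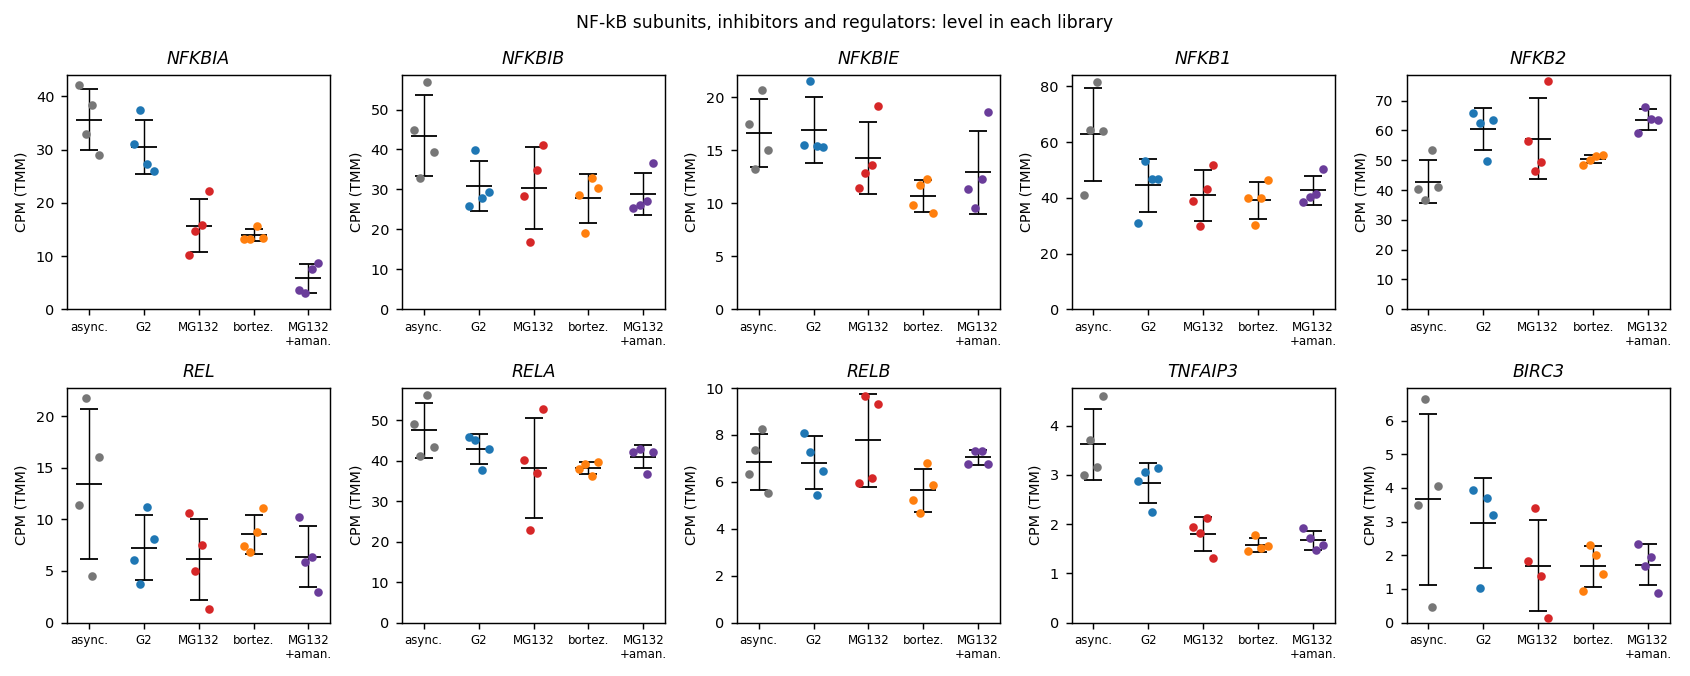
Level of each of the 10 genes in CPM with TMM scaling (vertical axis, from 0) in the 20 libraries, by group (horizontal axis); points are libraries, and the bars are the mean and 1 SD over 4 libraries. NFKBIA stepped down from a mean of 30.5 CPM in G2 to 5.79 with MG132 plus α-amanitin, TNFAIP3 lay lower in the 3 drug groups, and the groups of the other genes overlapped in most comparisons.

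NFKBIA (ENSG00000100906.11; hg38 chromosome 14, 35401511 to 35404749, minus strand) encodes IκBα, the inhibitor that is degraded and made again in each round of signalling. In asynchronous cells it was at 42.2, 33.0, 38.4 and 29.1 CPM in replicates 1 to 4. In G2 it was at 31.2, 37.4, 27.3 and 26.1 CPM. These 2 groups overlapped, and the untreated and G2 means of 35.7 ± 5.78 and 30.5 ± 5.10 CPM (SD, n = 4) differed by less than 1 SE of the log2 fold change.

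With MG132, NFKBIA was at 10.1, 14.6, 15.8 and 22.2 CPM. With bortezomib it was at 13.3, 13.2, 15.6 and 13.5 CPM. All 8 of these libraries lay below every G2 library, with the highest in MG132 replicate 4, one of the libraries with a steep GC slope. The mean was 15.7 ± 4.97 CPM with MG132 (n = 4; log2 fold change against G2 -0.96, SE 0.28, adjusted p from edgeR = 0.0902) and 13.9 ± 1.16 CPM with bortezomib (n = 4; -1.13, SE 0.28, adjusted p = 0.0547). Neither passed the threshold. Without MG132 replicate 4, the highest of its group, the MG132 change was called (-1.17, adjusted p = 0.0267). Of the other alternatives only an offset for GC content and length gave a call. With only MG132 and G2 fitted the change was -0.89 (adjusted p from edgeR = 0.400). Among samples with the same undocumented code letter, a possible batch that leaves 1 to 3 libraries per group, the log2 ratio to G2 was -1.09 and -0.67 for MG132 and -1.19 for bortezomib. With a block for that letter, bortezomib gave -1.04 and was not called. Only letter O held both bortezomib (1 library) and G2 (3 libraries), so that fit had little power for this comparison.

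With MG132 plus α-amanitin, NFKBIA was at 3.71, 3.13, 7.63 and 8.70 CPM, from 100 to 315 counts per library. Every one of these libraries lay below every G2 and every MG132 library, beside 7.24% and 4.01% of all genes that lay wholly below. The mean of 5.79 ± 2.79 CPM (n = 4) lay below MG132 alone (log2 fold change -1.44, SE 0.29, adjusted p from edgeR = 0.00763) and below G2 (-2.40, SE 0.29, adjusted p = 8.72e-05). The fall against G2 was called in every alternative fit, from -2.19 to -2.73. The fall against MG132 alone was called with each library left out in turn, but not without the 4 libraries of steep GC slope (-1.16, adjusted p = 0.0733) or when only these 2 groups were fitted (-1.44, adjusted p = 0.137). Within code letters the log2 ratio to MG132 was -1.45, -2.22 and -1.13, and the ratio to G2 was -3.32 and -1.80. From high to low, the order of the groups was asynchronous, G2, MG132, bortezomib and MG132 plus α-amanitin; asynchronous overlapped with G2, and MG132 with bortezomib.

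NFKBIE (ENSG00000146232.17; chromosome 6, 44258166 to 44265788, minus strand) encodes IκBε, another inducible inhibitor. It was at 15.5, 21.5, 15.4 and 15.3 CPM in G2 and at 9.81, 11.7, 12.3 and 9.11 CPM with bortezomib. The bortezomib libraries all lay below those of G2, but the difference did not pass (16.9 ± 3.07 against 10.7 ± 1.51 CPM over 4 libraries each; log2 fold change -0.66, SE 0.22, adjusted p from edgeR = 0.163). With MG132 it was at 11.4, 12.9, 13.6 and 19.2 CPM and with MG132 plus α-amanitin at 11.4, 9.52, 12.3 and 18.6 CPM, and both groups overlapped with G2. The log2 fold changes against G2 were -0.25 (SE 0.22) and -0.39 (SE 0.22), with adjusted p-values from edgeR of 0.819 and 0.469.

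NFKBIB (ENSG00000104825.17; chromosome 19, 38899700 to 38908893, plus strand) encodes IκBβ, which is less dependent on NF-kB for its expression. Its gene overlaps SIRT2 on the other strand, and the strand setting of the counting is not given in the sources used here. It was at 44.8, 32.8, 56.8 and 39.4 CPM in asynchronous cells and at 25.9, 40.0, 27.9 and 29.3 CPM in G2. The groups overlapped through G2 replicate 2, and the difference did not pass (log2 fold change -0.50, SE 0.25, adjusted p from edgeR = 0.422). The 3 drug groups had means of 30.3 ± 10.3 (MG132), 27.7 ± 6.05 (bortezomib) and 28.8 ± 5.26 CPM (MG132 plus α-amanitin; n = 4 each), against 30.8 ± 6.28 CPM in G2, and each differed from G2 by less than 1 SE.

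The makeup of the inhibitor transcripts differed along with these levels. CPM per kilobase of all annotated exons allows only a rough comparison of genes with each other, as it depends on the annotation. On this scale NFKBIA made up 39.5 ± 2.71% of the sum of NFKBIA, NFKBIB and NFKBIE in G2 (SD, n = 4). Its share was 26.4 ± 5.40% with MG132, 26.9 ± 2.38% with bortezomib and 11.9 ± 3.85% with MG132 plus α-amanitin. NFKBIB, in contrast, took 40.5 ± 2.55% in G2 and 63.1 ± 4.73% with MG132 plus α-amanitin, and NFKBIE 20.1 ± 0.191% and 25.0 ± 1.95%. The sum itself was 32.6 ± 5.78 CPM per kilobase in G2 and 19.8 ± 4.76 with MG132 plus α-amanitin. NFKBIA shares ranged from 8.13 to 16.3% with MG132 plus α-amanitin and from 37.2 to 43.4% in G2, with no overlap. These shares follow from the levels already given and were not tested.

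**Figure D2:**
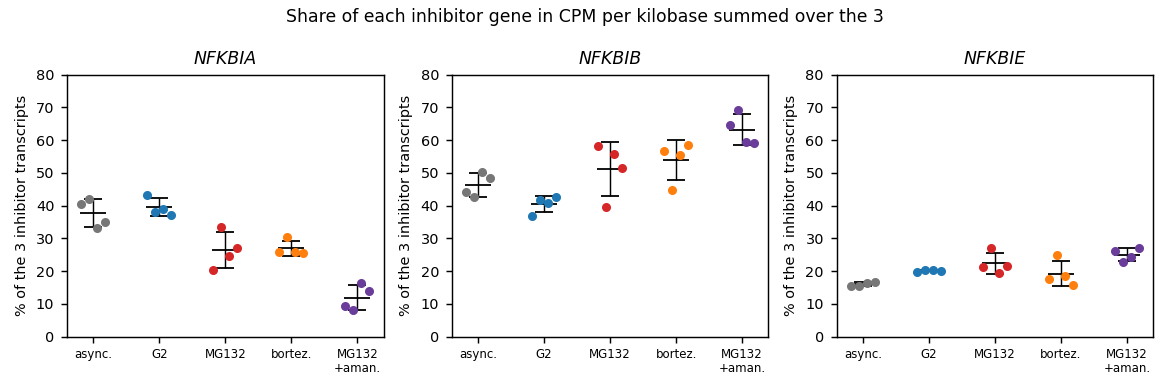
Share of each inhibitor gene in the CPM per kilobase of exon summed over NFKBIA, NFKBIB and NFKBIE (vertical axis, percent) in each library, by group (horizontal axis); bars are the mean and 1 SD over 4 libraries. The NFKBIA share was 39.5% in G2, about 26% to 27% with either proteasome inhibitor alone and 11.9% with MG132 plus α-amanitin, and the NFKBIB share was highest in the last group at 63.1%.

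TNFAIP3 (ENSG00000118503.15; chromosome 6, 137867188 to 137883312, plus strand) encodes A20, an enzyme that edits ubiquitin chains and ends signalling to IKK. Its gene overlaps the antisense RNA AL357060.1. The gene was weakly expressed, with 39 to 141 counts per library. It was at 2.99, 3.70, 3.17 and 4.60 CPM in asynchronous cells and at 2.87, 3.07, 2.24 and 3.15 CPM in G2, and these groups overlapped (log2 fold change -0.35, SE 0.20, adjusted p from edgeR = 0.512).

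With MG132, TNFAIP3 was at 1.93, 1.82, 2.12 and 1.32 CPM. With bortezomib it was at 1.45, 1.77, 1.52 and 1.55 CPM, and with MG132 plus α-amanitin at 1.92, 1.72, 1.47 and 1.58 CPM. Each drug group lay wholly below G2, as did 4.45% of all genes with MG132, 7.55% with bortezomib and 7.24% with MG132 plus α-amanitin. The 3 drug groups overlapped with each other. Against the G2 mean of 2.83 ± 0.411 CPM, the log2 fold change was -0.65 with MG132 (mean 1.80 ± 0.342 CPM, n = 4; SE 0.21, adjusted p from edgeR = 0.127). It was -0.84 with bortezomib (1.57 ± 0.138 CPM, n = 4; SE 0.21, adjusted p = 0.0539) and -0.76 with MG132 plus α-amanitin (1.67 ± 0.197 CPM, n = 4; SE 0.21, adjusted p = 0.0489). The last of these passed by a small margin. It was lost with each library of the comparison left out in turn (adjusted p from 0.0865 to 0.151), except G2 replicate 3 (0.035). Within code letters the log2 ratio to G2 was -0.66 and -0.71 for MG132, -0.95 for bortezomib, and -0.74 and -0.84 for MG132 plus α-amanitin; with a block for the letter the last comparison gave -0.82 (adjusted p = 0.154). TNFAIP3 with MG132 plus α-amanitin differed from MG132 alone by less than 1 SE (95% interval of the log2 difference -0.54 to 0.33).

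BIRC3 (ENSG00000023445.16; chromosome 11, 102317450 to 102339403, plus strand) encodes cIAP2, a ubiquitin ligase that takes part in signalling from tumour necrosis factor receptors. Its counts, like those of TNFAIP3, were sparse, at 4 to 212 per library. It was at 3.93, 1.01, 3.71 and 3.20 CPM in G2, at 1.82, 3.40, 1.39 and 0.14 with MG132, at 0.95, 2.32, 2.00 and 1.44 with bortezomib and at 2.33, 1.69, 1.96 and 0.88 with MG132 plus α-amanitin. G2 replicate 2 lay within the range of each drug group, so that no drug group was separated from G2. The log2 fold changes against G2 were -0.82, -0.82 and -0.78 with standard errors of 0.66, 0.66 and 0.65, and the adjusted p-values from edgeR were 0.766, 0.564 and 0.673. In asynchronous cells it ranged from 0.46 to 6.65 CPM.

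The 5 subunit genes showed no called change. In any comparison at most 2.32% of all genes were called in a given direction, so 0 of 5 says little about these genes. NFKB2 (ENSG00000077150.20; chromosome 10, 102394110 to 102402529, plus strand) encodes the precursor p100, which is processed to p52 in the non-canonical pathway. It was at 40.4, 36.6, 53.4 and 40.9 CPM in asynchronous cells and at 65.8, 62.7, 49.9 and 63.6 CPM in G2. Asynchronous replicate 3, a library with a steep GC slope, and G2 replicate 3 overlapped. The mean was 42.8 ± 7.29 against 60.5 ± 7.18 CPM (4 libraries each; log2 fold change 0.50, SE 0.17, adjusted p from edgeR = 0.171). Without the 4 libraries of steep GC slope the difference was called (0.60, adjusted p = 0.019), and once levels were offset for GC content and length it was 0.31 (adjusted p = 0.123). Within code letters it was 0.70 and 0.14.

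In the drug groups NFKB2 had means close to that of G2, at 57.2 ± 13.7 CPM with MG132, 50.4 ± 1.43 with bortezomib and 63.7 ± 3.54 with MG132 plus α-amanitin (n = 4 each). The bortezomib difference from G2 was -0.26 on the log2 scale (SE 0.17, adjusted p from edgeR = 0.493), and an offset for GC content and length brought it to 0.010. The libraries with α-amanitin, at 59.2, 67.9, 64.0 and 63.6 CPM, were closely grouped.

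NFKB1 (ENSG00000109320.13; chromosome 4, 102501329 to 102617302, plus strand) encodes the precursor p105, the source of p50. It was at 41.1, 64.5, 81.7 and 64.1 CPM in asynchronous cells and at 31.0, 53.4, 46.8 and 46.6 CPM in G2. Asynchronous replicate 1 lay inside the G2 range and the other 3 above it (log2 fold change -0.50, SE 0.23, adjusted p from edgeR = 0.335). Means in the drug groups, 40.9 ± 9.25, 39.1 ± 6.58 and 42.7 ± 5.29 CPM with MG132, bortezomib and MG132 plus α-amanitin, were each within 1 SE of the G2 mean of 44.4 ± 9.51 CPM (n = 4 each). Per kilobase of exon, NFKB1 made up 31.5 ± 5.08% and NFKB2 30.3 ± 2.36% of the summed subunit transcripts in asynchronous cells. In G2 these shares were 22.8 ± 4.81% and 43.1 ± 3.24%. In the 3 drug groups NFKB1 had mean shares of 21.7 to 23.0% and NFKB2 of 41.7 to 45.3%.

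RELA (ENSG00000173039.19; chromosome 11, 65653596 to 65663094, minus strand) encodes p65, the main activating subunit, and overlaps the RNA gene AP001362.2 on the other strand. Its group means ran from 38.2 ± 12.3 CPM with MG132 to 47.5 ± 6.76 CPM in asynchronous cells (n = 4), and all 6 comparisons lay within 1 SE. The MG132 group was the most spread, at 40.2, 22.8, 36.9 and 52.8 CPM, with the lowest and the highest in the 2 MG132 libraries of steep GC slope.

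RELB (ENSG00000104856.14; chromosome 19, 45001430 to 45038198, plus strand) encodes the partner of p52. It was at 5.95, 9.64, 6.17 and 9.32 CPM with MG132 and at 5.24, 4.67, 6.81 and 5.85 CPM with bortezomib. The higher MG132 values were those of replicates 2 and 4, whose steep GC slopes run in opposite directions (-0.41 and 0.74). The difference, MG132 minus bortezomib, was 0.46 on the log2 scale (SE 0.20, 95% interval 0.04 to 0.88, unadjusted p from edgeR = 0.0337, adjusted p = 0.983). It was 0.11 without the 4 libraries of steep GC slope (unadjusted p = 0.604) and 0.34 with a block for the code letter. Against G2, bortezomib gave -0.27 (SE 0.20, adjusted p = 0.532), which an offset for GC content and length turned to 0.11.

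REL (ENSG00000162924.15; chromosome 2, 60881521 to 60931610, plus strand) encodes c-Rel, a subunit best known in lymphocytes. It shares its strand with the small RNA gene RNU4-51P and the 3′ overlapping RNA AC010733.2, and reads there cannot be told apart. It was at 11.4, 21.7, 4.56 and 16.1 CPM in asynchronous cells and at 6.03, 3.74, 11.2 and 8.07 CPM in G2. The lowest library of each group was the one with a steep GC slope, and the groups overlapped (log2 fold change -0.89, SE 0.50, adjusted p from edgeR = 0.501). Once levels were offset for GC content and length, the difference was called (-0.85, adjusted p = 0.0484). With a block for the code letter it was -0.26 (adjusted p = 0.900), and within letters its direction turned, at -0.92 for the pair of libraries that share one letter and 0.75 for the 4 that share another. The drug groups had means of 6.14 ± 3.95, 8.57 ± 1.89 and 6.37 ± 2.96 CPM with MG132, bortezomib and MG132 plus α-amanitin (n = 4 each).

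MG132 at 20 µM and bortezomib at 100 nM were compared at the same time of 3 h. Of the 10 differences, 7 lay within 1 SE. For NFKBIA the interval of the difference (MG132 minus bortezomib, log2, 95%) was -0.41 to 0.76, and for TNFAIP3 it was -0.25 to 0.63. For NFKBIE the difference was 0.41 (SE 0.22, interval -0.05 to 0.88) and for NFKB2 0.18 (SE 0.17, interval -0.18 to 0.55), both with an adjusted p from edgeR of 0.983. The intervals do not show that the inhibitors act alike on these genes.

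**Figure D3:**
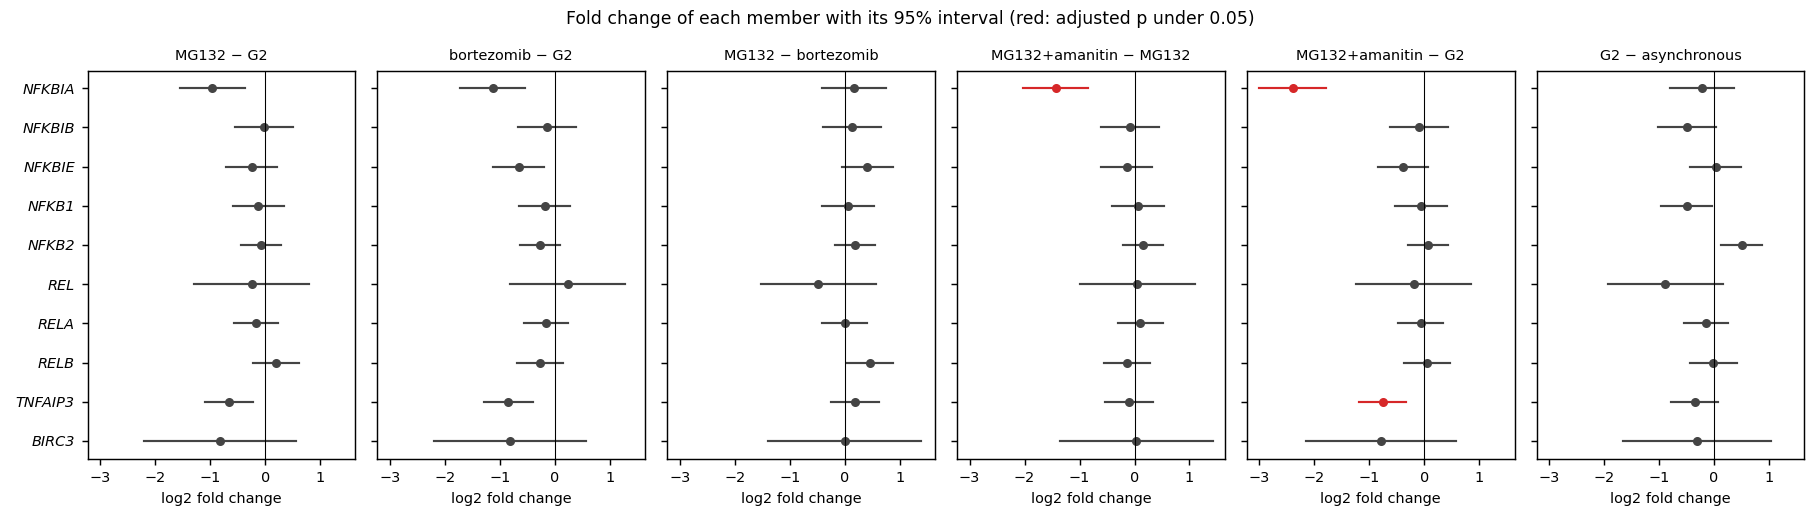
Log2 fold change of each of the 10 genes (points; horizontal axis) with its 95% interval from edgeR (lines) in the 6 comparisons (panels); red marks an adjusted p under 0.05. NFKBIA was called lower in both comparisons with α-amanitin (-1.44 and -2.40), TNFAIP3 in that against G2 (-0.76), and the intervals of REL and BIRC3 were the widest.

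Between genes, levels were compared per kilobase of all annotated exons, so their order depends on the annotation. REL, with 13170 bases of exon, stood below RELB, with 3035, although its mean CPM in G2 was higher (7.27 against 6.81). In G2 the order was NFKB2 at 13.5 ± 1.60, NFKBIB at 13.2 ± 2.70 and NFKBIA at 12.9 ± 2.15 CPM per kilobase, which overlapped, then RELA at 7.84 ± 0.679, NFKB1 at 7.10 ± 1.52 and NFKBIE at 6.55 ± 1.19, and RELB at 2.24 ± 0.374 (n = 4 each). TNFAIP3 at 0.560 ± 0.0814, REL at 0.552 ± 0.241 and BIRC3 at 0.394 ± 0.178 were the lowest. In cells with MG132 plus α-amanitin NFKBIA stood at 2.44 ± 1.17, next to RELB at 2.32 ± 0.102, while NFKB2 and NFKBIB were at 14.2 ± 0.790 and 12.4 ± 2.26.

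The spread of several genes followed the GC slope of the libraries. Over the 20 libraries, which share depth and base composition effects, Pearson's r between log2 CPM and the GC slope was -0.77 for BIRC3 and -0.76 for REL, whose exons are 34.8% and 38.7% GC. It was 0.74 for RELA, 0.68 for NFKBIE, 0.64 for NFKB2 and 0.60 for NFKBIB, which lie at 57.1% to 62.4% GC. RELB, the most GC-rich at 65.4%, had r = 0.42, and NFKB1, at 50.1%, had 0.43. For NFKBIA and TNFAIP3, at 53.1% and 49.5% GC, r was 0.21 and -0.04. REL and BIRC3 followed each other across libraries (r = 0.80), as did NFKBIB and NFKB1 (0.81), and NFKBIA had r = 0.65 with both NFKBIE and TNFAIP3; these are descriptions over 20 libraries of 5 groups.

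**Figure D4:**
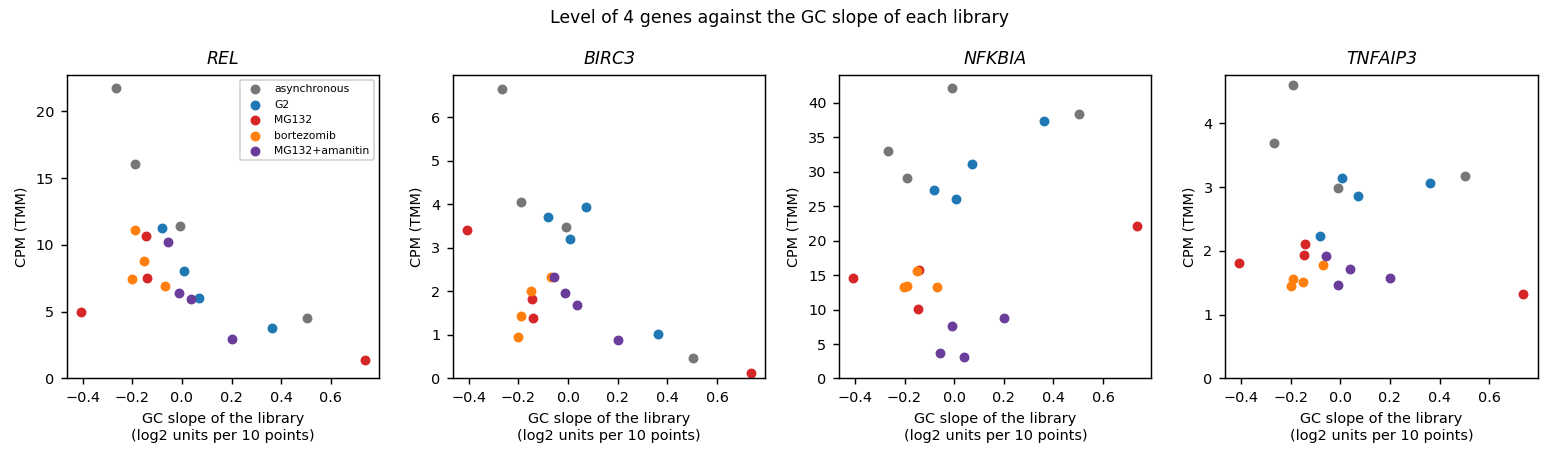
Level in CPM (vertical axis) of REL, BIRC3, NFKBIA and TNFAIP3 against the GC slope of each of the 20 libraries (horizontal axis, log2 units per 10 percentage points of GC); colours mark the groups. REL and BIRC3 ran downwards with the slope (r of log2 CPM -0.76 and -0.77), whereas NFKBIA and TNFAIP3 had r of 0.21 and -0.04. For NFKBIA and TNFAIP3 each drug group lay wholly below G2, beside 4.45% to 7.55% of all genes.

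Among 9673 well expressed protein-coding genes, the pattern of NFKBIA over the 20 libraries was most like those of CCDC12 (r = 0.95), HES1 (0.94), a repressor in the Notch pathway, and TBCC (0.93), a tubulin-folding cofactor. Without the 4 libraries of steep GC slope CCDC12 was again the closest (r = 0.96, 16 libraries), followed by RNF139 and ZNF574. TNFAIP3 was most like WNT16 (0.88) and MARS2 (0.85), and NFKBIE most like ETS2 (0.93). Of the closest genes of the other members, the highest r was 0.97 (NFKBIB with PRPS1) and the lowest 0.82 (RELB with TMEM231). These are descriptions of shared patterns over samples that share groups, depth and base composition.

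Other genes of the pathway were read from 5 lists of 116 genes, of which 99 were tested: kinases and adaptors, ubiquitin ligases and deubiquitinases, receptors, other IκB-family and nuclear regulators, and target genes. With MG132 against G2, 5 were called higher and 1 lower, where 1.01% and 1.08% of all genes were. MAP3K14, the NIK kinase that drives NFKB2 processing, was at 16.8, 15.2, 13.6 and 18.7 CPM in G2 and at 37.9, 25.0, 31.3 and 51.2 with MG132 (log2 fold change 1.18, SE 0.23, adjusted p from edgeR = 0.00718). The groups did not overlap, and the call was lost with mitochondrial mRNA scaling or when only these groups were fitted. Bortezomib libraries, at 28.6, 29.6, 25.7 and 28.8 CPM, lay above G2 too but did not pass (0.81, adjusted p = 0.0866). The IKK genes CHUK, IKBKB and IKBKG were not called in any comparison, nor were CXCL2, SOD2, ICAM1, BCL3, CFLAR, TNIP1, CYLD, BTRC, FBXW11, TRAF1 and BIRC2. BCL3, a nuclear IκB-family protein that partners p50 and p52, was at 2.21 ± 0.174 CPM in G2 and 1.09 ± 0.510 with MG132 (n = 4; a log2 difference of -1.01, SE 0.34, adjusted p from edgeR = 0.159). None of the 22 ubiquitin ligases and deubiquitinases was called in any comparison. For these and the uncalled genes named above this says little, as at most 2.32% of all genes were called in a given direction.

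NFKBIZ, a nuclear IκB-family protein that can activate transcription, rose with MG132 from 6.28 ± 0.304 to 12.6 ± 3.31 CPM (n = 4; log2 fold change 1.00, adjusted p from edgeR = 0.0218). It was not called without 6 of the 8 libraries in turn, with total library size or mitochondrial mRNA scaling, when only these groups were fitted or without the 4 libraries of steep GC slope. With bortezomib it was at 11.6 ± 2.89 CPM (n = 4; 0.89, adjusted p = 0.0614). TNFRSF10B, a death receptor for TRAIL, rose from 89.5 ± 7.29 CPM in G2 to 200.2 ± 47.1 with MG132 (n = 4; 1.16, adjusted p = 0.0014, lost with mitochondrial mRNA scaling or when only these groups were fitted) and to 162.8 ± 21.5 with bortezomib (n = 4; 0.86, adjusted p = 0.0242, lost without any of the 4 G2 libraries or bortezomib replicates 1 or 2, and in 6 of 13 other alternatives, among them total library size and mitochondrial mRNA scaling and the block for the code letter). Of 31 tested target genes, GADD45B, a stress-response gene (2.02, adjusted p = 0.00175; 0.0506 when only these groups were fitted), and PTGS2, the inducible cyclooxygenase (3.11, adjusted p = 0.00491; 0.0597 with a block for the code letter), rose with MG132, and EFNA1, an ephrin ligand, fell by 1.31 on the log2 scale (adjusted p = 0.034). EFNA1 also fell by 1.70 with bortezomib (adjusted p = 0.00925), where it and TNFRSF10B were the only list genes called (0.491% of all genes were called higher and 0.659% lower). The EFNA1 fall with MG132 was lost without 5 of 8 libraries in turn, and that with bortezomib without G2 replicate 1 (adjusted p = 0.0501). Both were lost with a block for the code letter. That block leaves little power for bortezomib against G2, as these groups share only letter O.

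With MG132 plus α-amanitin against MG132, 8 of the 99 were called lower and 0 higher, where 1.51% and 0.68% of all genes were. IER3, an early response gene, was at 176, 148, 206 and 369 CPM with MG132 and at 51.3, 62.4, 68.7 and 84.0 with α-amanitin added (log2 fold change -1.76, SE 0.26, adjusted p from edgeR = 0.000345). The groups did not overlap, and NFKBIA was thus not alone among target genes in its fall. GADD45B fell by 2.23 on the log2 scale (adjusted p = 0.000422), ZC3H12A, a ribonuclease that degrades inflammatory transcripts, fell by 1.51 (adjusted p = 0.00208) and NFKBIZ fell by 1.10 (adjusted p = 0.0105). CXCL1, a chemokine, was called on 2 to 6 counts per library with α-amanitin against 16 to 40 with MG132. CXCL8, TNFRSF12A and TNFRSF10B were called too (adjusted p = 0.0431, 0.0361 and 0.047), each lost without at least 5 of the 8 libraries in turn and in 5 to 8 of 13 other alternatives. For NFKBIZ the call was lost without MG132 plus α-amanitin replicate 1 or 2, or when only these groups were fitted.

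Against G2, 5 of the 99 were called lower with MG132 plus α-amanitin and 0 higher, where 2.32% and 1.04% of all genes were. These were IER3 (-1.92, adjusted p from edgeR = 0.000192), CXCL1, EFNA1 (-1.39, adjusted p = 0.0166), ZC3H12A (-1.05, adjusted p = 0.0265) and NFKBID, a nuclear IκB-family gene (-0.80, adjusted p = 0.014). The last 3 were lost without 4, 7 and 3 of the 8 libraries in turn, and each with a block for the code letter. MAP3K14 and NFKBIZ, at 20.2 ± 3.98 and 5.89 ± 0.622 CPM with α-amanitin, were not called against G2 (n = 4; adjusted p from edgeR = 0.571 and 0.916). Between MG132 and bortezomib 0 of the 99 were called, and between G2 and asynchronous cells only EDAR, the ectodysplasin receptor, was (1.95% of all genes were called higher; 2.50, adjusted p = 0.0073; 0.0636 when only these groups were fitted), at 0.256 ± 0.141 CPM in asynchronous cells and 1.49 ± 0.376 in G2 (n = 4).

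**Figure D5:**
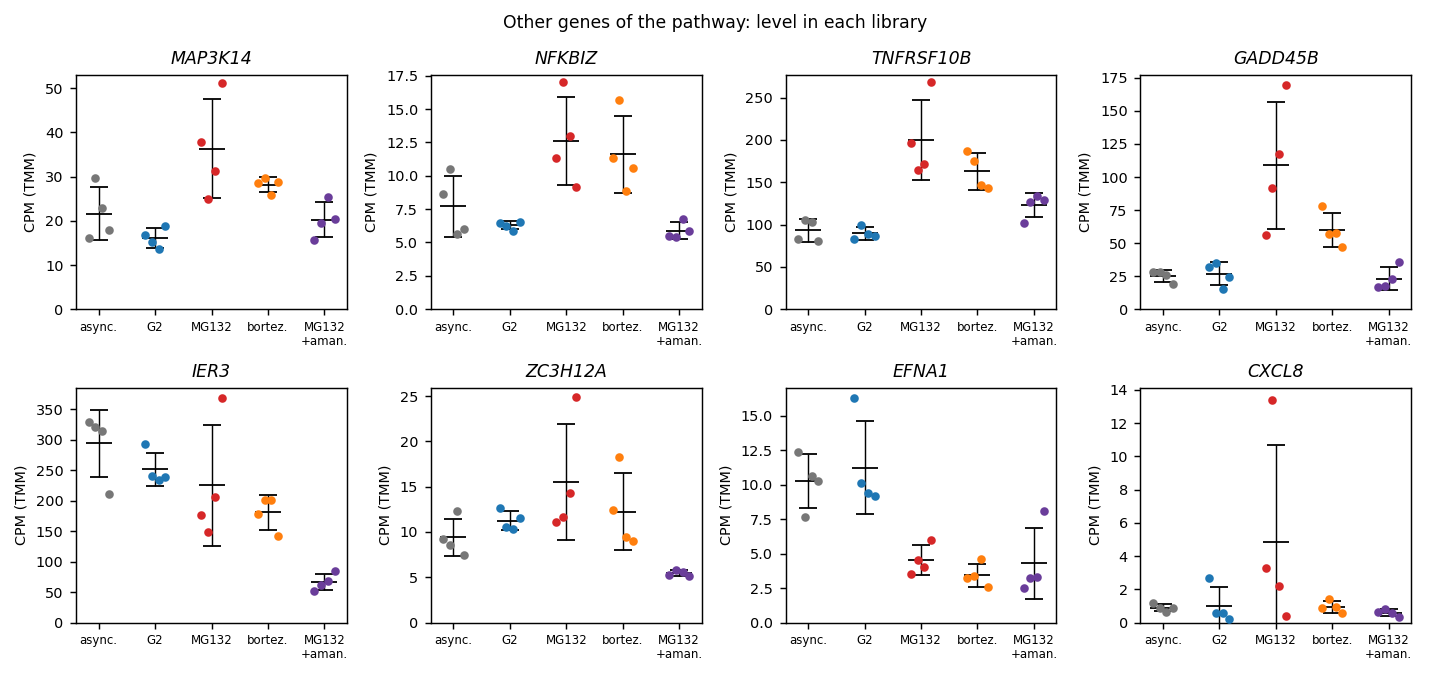
Level in CPM with TMM scaling (vertical axis, from 0) of 8 other pathway genes in the 20 libraries, by group (horizontal axis); points are libraries, and the bars are the mean and 1 SD over 4 libraries. MAP3K14, NFKBIZ, TNFRSF10B and GADD45B were highest with MG132, IER3 and ZC3H12A lowest with MG132 plus α-amanitin, and the wide CXCL8 bar came from 1 MG132 library.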

How the data were processed

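The authors deposited raw counts, whole numbers over 39918 genes and 1174 repeat subfamilies in 20 libraries, per the file headers. Per the labels' protocols, stranded TruSeq libraries were made from ribosome-depleted total RNA after TRIzol extraction and DNase. The submitters' processing notes name FastQC, cutadapt 1.18, STAR and hg38, without roles. The counting tool, annotation release, strand setting and treatment of multimapping reads were not given in the sources used here. Of the 39918 genes, 39900 were named by Ensembl ID without version, 38661 of them from GENCODE release 29 and the rest from a separate list of gene names. GENCODE release 29 also gave positions (38661 genes), exon lengths (union of exons) and GC content.

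Genes and repeats were fitted together with edgeR 4.0.16 in R 4.3.3 (filterByExpr, TMM, robust glmQLFit and glmQLFTest) on all 20 libraries, with 1 mean per group and 15 residual degrees of freedom; p-values were Benjamini-Hochberg adjusted over 18959 genes, and SE is the absolute log2 fold change divided by the root of F. CPM used TMM library sizes. The genes, lists and tests were chosen with earlier results of these data known. Named genes were the 10 members, up to 4 called genes of smallest p per list and comparison, a fixed set and the 3 most similar genes per member, and most but not all of these are described. For the 10 members, a fold change of the fit above is printed only where it reached 1 SE. Likeness used log2 CPM with a prior count of 2 and genes with a mean of at least 3. Cell type markers were lists for epithelium, leukocytes, fibroblasts and endothelium. Replicates were checked for duplicate deposition by chi-square tests of their counts, and none agreed within sampling noise. The script was tested on simulated data. Alternatives were other scalings, filters (the strict one CPM of at least 1 in at least 4 libraries), DESeq2 1.42.0, limma-voom (limma 3.58.1), other sample sets and blocks; a GC and length offset (loess span 0.5) and leaving out the 4 libraries of steep GC slope were chosen after seeing the data. Both properties were available for 98.6% of tested genes.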

Additional observations from a re-analysis of the deposited data

Results flagged for a closer look

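Within a group of 4 libraries, 1 library stood apart from the other 3 (Dixon's test, 95%) in 4 of the 50 combinations of gene and group; chance alone flags about 1 in 20. NFKBIA in bortezomib replicate 3 was at 15.6 CPM, against 13.2 to 13.5 in the other bortezomib libraries, and still lay below every G2 library. NFKBIB in MG132 plus α-amanitin replicate 4 was at 36.6 CPM, against 25.3 to 27.2. NFKBIE in G2 replicate 2, a library with a steep GC slope, was at 21.5 CPM, against 15.3 to 15.5. RELA in MG132 plus α-amanitin replicate 3 was at 36.7 CPM, against 42.1 to 42.9. The cause was not tested for any of them.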

How the results depend on the processing

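The comparison of MG132 with bortezomib had 0 members called in every alternative run, and the fall of NFKBIA with MG132 plus α-amanitin against G2 was called in all of them. Against G2, bortezomib had 1 member called, NFKBIA, with total library size scaling, no filter, only the groups compared and genes without repeats. With the strict filter and without the 4 libraries of steep GC slope the 1 member called was TNFAIP3 and not NFKBIA. Both were called with DESeq2 and with the GC and length offset (chosen after seeing the data), against 0 in the report. Leaving out each library gave 0 to 1 (TNFAIP3 without G2 replicate 3). MG132 plus α-amanitin against G2 had 1 in place of 2 with total library size scaling, no filter, only the groups compared, genes without repeats, a replicate block, a code letter block and without the 4 libraries of steep slope, and 1 to 2 with each library left out. Against MG132 it had 0 in place of 1 with only the groups compared and without the 4 libraries. MG132 against G2 had 1 in place of 0 with the offset (NFKBIA, -0.86, adjusted p = 0.0396) and 0 to 1 with each library left out. G2 against asynchronous cells had 1 in place of 0 with the offset (REL) and without the 4 libraries (NFKB2). With the offset, the bortezomib changes of NFKB2 and RELB reversed to 0.010 and 0.11. Of the 37 pairs within 1 SE, 33 changed sign in at least 1 alternative and 0 were called. The cause was not tested.

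The replicate numbers were not taken as pairs: same-numbered libraries had r over 0.1 in 6 of 24 cases (range -0.61 to 0.61), and 5 of 24 correlated best with their own number. With the replicate block TNFAIP3 lost its call (adjusted p from edgeR = 0.0939), and 258, 120, 3, 288, 466 and 238 genes were called in place of 395, 218, 7, 415, 636 and 397 (MG132, bortezomib, MG132 against bortezomib, α-amanitin against MG132, α-amanitin against G2, G2 against asynchronous). Over all alternatives these counts ranged over 86 to 770, 30 to 621, 0 to 19, 186 to 829, 224 to 1026 and 8 to 994, and calls in the 5 lists over 1 to 10 higher with MG132 and 4 to 18 lower when α-amanitin was added. Total library size scaling moved the median of all genes to -0.15 for MG132 against G2, 0.20 for α-amanitin against MG132 and 0.12 for G2 against asynchronous cells, and mitochondrial mRNA scaling moved it to -0.29, -0.22 and -0.41 for the 3 drug groups against G2. TNFAIP3 and BIRC3, at 39 to 141 and 4 to 212 counts per library, are limited by depth.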
